A study of Mus musculus with 16 samples.

Results

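The NF-kB inflammatory genes described here are 10 of the 22609 gene symbols counted in the series, and they were followed across 4 kinds of mouse sensory ganglion. They were Il6, Il1b, Cxcl1, Cxcl2, Ccl2, Ccr1, Icam1, Nfkbia, Nfkbie and Tnfaip3, taken by symbol from the counts of all 16 libraries. They were chosen by name with their read counts in these same libraries known, and Il6, Ccr1, Nfkbie and Icam1 had been selected on their difference between T10-L1 and L3-L5 DRG, so their levels and fold changes are given as a description. No p-value is printed for a single one of them, and the number called by a test is given only beside the share of all genes called. All 10 had reads, and for 9 of them most of the variance in level lay between libraries of one ganglion. In the sorted L3-L5 DRG sensory neurons 9 of the 10 had their lowest mean. All 10 were lower there than in T10-L1 DRG by the fitted fold change. The median log2 difference was 2.14, against -0.03 over all genes tested, in a list partly selected on it. Markers of macrophages (median 1.41) and fibroblasts (0.92) were also higher in T10-L1 DRG. Glial markers were near 0 (0.07) and sensory neuron markers lower (-1.15).

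RNA-seq was done on TdTomato-positive sensory neurons sorted by FACS from naive, young adult male C57BL/6J mice carrying Pirt cre/- and Rosa26 LSL-tdTomato/+, in which Cre under the Pirt promoter switches on the red reporter in sensory neurons. All groups shared this genotype, the enzymatic dissociation and the sort, and none was treated. The groups were thoracolumbar dorsal root ganglia (T10-L1 DRG), lumbar dorsal root ganglia (L3-L5 DRG), the vagal nodose/jugular ganglion complex (NG/JG) and the trigeminal ganglion (TG), with 4 libraries each. The paper states independent sorts only for the TG samples of its cell-size plot. The sources used here do not give the animals or sorts behind each library, so SD, SE and p-values measure the spread between libraries.

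NF-kB is a family of dimeric transcription factors that are held in the cytoplasm by inhibitor proteins of the IkB family. Cytokine receptors and Toll-like receptors set off the breakdown of the inhibitors, and the dimers then enter the nucleus and switch on genes of inflammation. The targets include cytokines, chemokines that call in leukocytes, adhesion molecules and the inhibitors themselves, which end the response. In sensory ganglia these genes are known from nerve injury and inflammation, and both neurons and resident macrophages can express several of them.

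Reads on genes ranged from 4735624 to 13333318 per library, so that 3 counts, the limit that a count of 0 allows, stood for 0.225 to 0.6335 CPM (counts scaled to a fixed number of reads on genes). This limit covers counting error only, since the reads carried no molecular identifiers. All 10 sensory neuron markers, Pirt among them at 16.8 to 308 CPM, had reads in all 16 libraries. The lowest values were 0.127 CPM for Isl1, below that limit, and 0.413 CPM for Pou4f1. Markers of other cells were present as well. The 10 glial markers summed to 11317 to 70278 CPM per library, with Mbp and Pmp22 highest on average, and the 7 fibroblast markers to 397 to 35891 CPM, with Apod and Dcn highest. Endothelial markers summed to 49.6 to 1422 CPM, with Cldn5 highest, mural markers to 54.2 to 1358 CPM, with Acta2 and Tagln highest, and lymphocyte markers to at most 27.3 CPM. The animals are labelled male, but all 16 libraries had 1279 to 8362 counts of Xist and 0 counts of the 12 genes of chromosome Y that were looked up.

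The promoters are shown first, because a short DNA element read by NF-kB dimers is what the genes are grouped for. RefSeq promoter windows (table of build GRCm38.p6) were found for 9 of the 10 genes, all but Ccl2. The 250 bases before each start were searched on both strands for the 10-base NF-kB consensus and for the shorter GGANNTTCC, which can overlap it. The consensus was present in 6 of the 9 genes (Il6, Cxcl1, Cxcl2, Nfkbia, Nfkbie and Tnfaip3), against 3.92% of the 32536 distinct windows in the table. GGANNTTCC was present in 7, the same 6 and Icam1, against 3.59% of the windows. The genes are known NF-kB genes, so this is a property of how they were chosen. Neither motif was found in Il1b or Ccr1, which says only that these letters are not in those windows. The windows of 5 of the 6 genes are given to show the match in place, leaving out that of Tnfaip3, which holds 110 bases of an annotated exon. That of Ccr1, the gene with the lowest level per length, is shown as one without a match. Each reads 5′ to 3′ towards the gene, with the consensus match in capitals, and the bases that GENCODE places in an exon were left off the end in Cxcl1 and Cxcl2. Exact matches were sought only on the gene's own chromosome of mm9 and in the direction of the gene, and each was found once there. The places were chr5:30339404-30339653 on the plus strand for Il6, chr5:91320021-91320266 plus for Cxcl1, chr5:91332675-91332896 plus for Cxcl2, chr12:56593635-56593884 minus for Nfkbia, chr17:45692399-45692648 plus for Nfkbie and chr9:123883526-123883775 minus for Ccr1.
Il6: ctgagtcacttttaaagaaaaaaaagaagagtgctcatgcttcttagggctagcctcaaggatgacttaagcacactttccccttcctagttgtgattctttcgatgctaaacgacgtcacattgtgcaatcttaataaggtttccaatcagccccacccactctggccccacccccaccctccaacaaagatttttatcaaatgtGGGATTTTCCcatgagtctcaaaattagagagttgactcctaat
Cxcl1: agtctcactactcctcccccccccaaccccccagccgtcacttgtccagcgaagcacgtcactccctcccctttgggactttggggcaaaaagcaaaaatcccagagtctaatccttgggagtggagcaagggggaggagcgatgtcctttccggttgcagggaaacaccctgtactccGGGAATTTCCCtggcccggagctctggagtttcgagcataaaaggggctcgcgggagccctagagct
Cxcl2: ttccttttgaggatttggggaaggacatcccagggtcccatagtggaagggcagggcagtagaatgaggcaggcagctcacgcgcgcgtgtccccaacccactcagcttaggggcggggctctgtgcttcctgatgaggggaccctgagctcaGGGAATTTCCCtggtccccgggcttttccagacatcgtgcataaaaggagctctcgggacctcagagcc
Nfkbia: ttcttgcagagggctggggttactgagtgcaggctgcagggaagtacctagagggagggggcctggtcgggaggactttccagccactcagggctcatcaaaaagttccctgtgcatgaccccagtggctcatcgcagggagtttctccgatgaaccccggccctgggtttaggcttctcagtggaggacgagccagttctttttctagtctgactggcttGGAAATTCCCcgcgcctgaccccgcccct
Nfkbie: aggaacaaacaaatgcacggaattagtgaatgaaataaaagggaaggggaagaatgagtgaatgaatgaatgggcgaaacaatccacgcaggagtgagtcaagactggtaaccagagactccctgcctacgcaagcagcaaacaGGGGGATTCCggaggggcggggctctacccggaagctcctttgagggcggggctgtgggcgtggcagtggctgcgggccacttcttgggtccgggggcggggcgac
Ccr1: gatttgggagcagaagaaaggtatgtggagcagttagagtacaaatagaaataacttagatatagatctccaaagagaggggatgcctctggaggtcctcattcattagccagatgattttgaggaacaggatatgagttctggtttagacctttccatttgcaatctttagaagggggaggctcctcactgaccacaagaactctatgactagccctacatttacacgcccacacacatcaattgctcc

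The match lay 44 to 35 bases before the start in Il6, and 29 to 20 bases before it in Nfkbia. In Nfkbie it lay 106 to 97 bases before the start. Cxcl1 and Cxcl2 are neighbours on chromosome 5, with 10755 bases between the annotated end of one and start of the other. Their longest shared run in these windows was gggaatttccctgg, 14 bases that begin 71 bases before the start in Cxcl1 and 97 before it in Cxcl2. It holds the consensus on both strands, which is why 11 bases stand in capitals there.

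**Figure D1:**
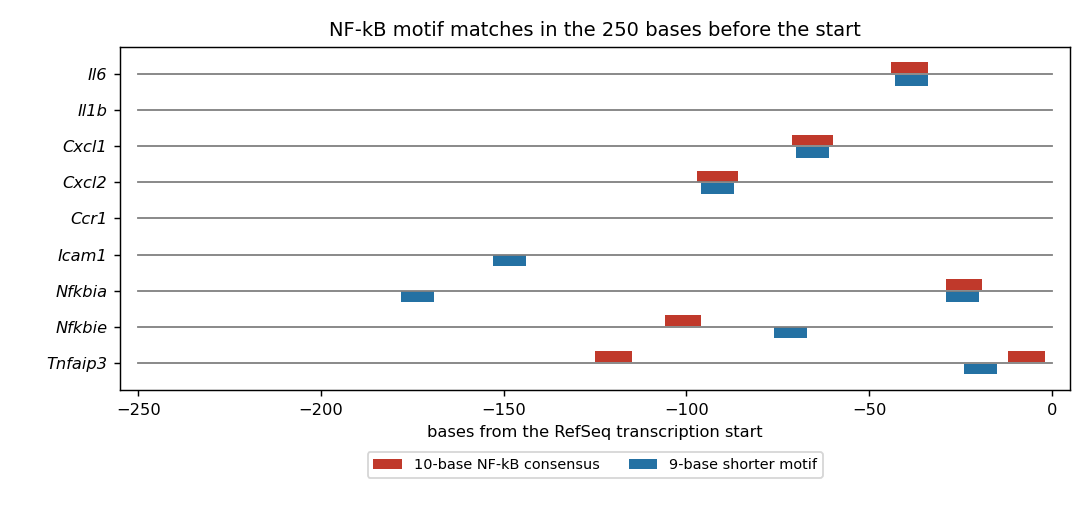
Each grey line is the 250 bases before the RefSeq start of one gene (x axis, bases from the start), with matches to the 10-base NF-kB consensus in red and to the shorter 9-base motif in blue. The consensus lies within 125 bases of the start in the 6 genes that have it, and Il1b and Ccr1 show neither.

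Among the 10 genes the inhibitor gene Nfkbia had the highest level per exon length, with a mean of 379 RPKM (CPM divided by the exon length in kilobases) over the 16 libraries. Cxcl1 followed with 135 RPKM, Il1b with 103, Ccl2 with 94.9, Cxcl2 with 56.4 and Icam1 with 32.9. Nfkbie (14.2 RPKM), Tnfaip3 (13.4 RPKM), Il6 (10.03 RPKM) and Ccr1 (4.58 RPKM) were lowest. Ccr1 had 3 counts or fewer in 7 libraries, Il6 in 4 and Nfkbie in 3, and the other 7 genes were above 3 counts in all 16. All values that follow are CPM, which compares one gene between libraries and not one gene with another.

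**Figure D2:**
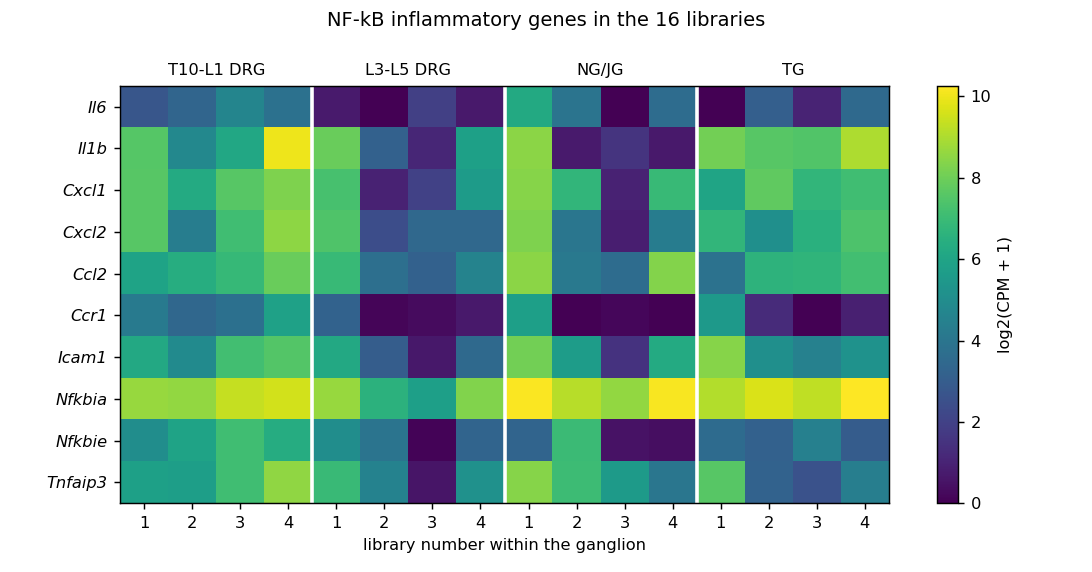
Heat map of log2(CPM + 1) for the 10 genes (rows) in the 16 libraries (columns, numbered within each ganglion). Columns stand out more than blocks of 4: L3-L5 DRG library 1 and NG/JG library 1 are bright across most genes, and L3-L5 DRG library 3 and NG/JG library 3 are dark, while Nfkbia is above 55 CPM in every library.

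Nfkbia, on chromosome 12 of mm9 from 56590398 to 56593634, encodes IkB-alpha, the inhibitor that NF-kB itself induces and that ends the response. In T10-L1 DRG libraries 1 to 4 it had 410.4, 382, 650.4 and 758 CPM. The L3-L5 DRG libraries had 414, 95.8, 55.1 and 317 CPM. Libraries 2 and 3 of L3-L5 DRG were thus the lowest of the 16. NG/JG had 1173, 571, 382 and 1145 CPM, and TG had 546, 825, 622 and 1226 CPM. The means were 818 ± 402 CPM in NG/JG, 805 ± 304 in TG, 550.0 ± 183 in T10-L1 DRG and 220.5 ± 173 in L3-L5 DRG (SD, n = 4 each). All TG libraries lay above all L3-L5 DRG libraries, and every other pair of ganglia overlapped.

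Nfkbie, on chromosome 17 from 45692665 to 45700118, encodes IkB-epsilon, a slower inhibitor of the same family. The T10-L1 DRG libraries had 31.6, 61.0, 138 and 80.5 CPM and the TG libraries 10.9, 8.07, 21.0 and 7.02 CPM, without overlap. In L3-L5 DRG the values were 32.1, 14.5, 0.0824 and 8.87 CPM, of which library 1 reached into the range of T10-L1 DRG. NG/JG was split, with 127 CPM in library 2 and 8.90, 0.415 and 0.310 CPM in libraries 1, 3 and 4. Means were 77.9 ± 45.0 CPM in T10-L1 DRG, 34.2 ± 62.0 in NG/JG, 13.9 ± 13.5 in L3-L5 DRG and 11.7 ± 6.36 in TG (SD, n = 4 each). Nfkbie was the one gene of the 10 whose lowest mean was not in L3-L5 DRG.

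Tnfaip3, on chromosome 10 from 18720716 to 18735463, encodes A20, a ubiquitin-editing enzyme that shuts off signalling from cytokine receptors. It had 55.2, 52.7, 137 and 372 CPM in T10-L1 DRG and 122, 22.5, 0.494 and 35.5 CPM in L3-L5 DRG. In NG/JG it had 333, 131, 46.6 and 15.2 CPM, and in TG 189.9, 8.46, 4.98 and 20.02 CPM. One library was far above the others in TG, and the ranges of all 4 ganglia overlapped. The means ran from 154 ± 150.2 CPM in T10-L1 DRG and 131 ± 143 in NG/JG to 55.8 ± 89.6 in TG and 45.2 ± 53.5 in L3-L5 DRG (SD, n = 4 each).

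Il6, on chromosome 5 from 30339701 to 30346508, encodes interleukin-6, a cytokine made by neurons after injury and by many immune and stromal cells. The T10-L1 DRG libraries had 5.66, 9.23, 24.3 and 13.2 CPM and the L3-L5 DRG libraries 0.681, 0, 2.88 and 0.633 CPM. The ranges did not overlap, and in counts these were 37 to 296 against 0 to 35. NG/JG had 73.2, 14.2, 0 and 11.4 CPM, so that the same ganglion held the highest library of the 16 and one without a read. TG had 0, 7.67, 1.03 and 10.4 CPM. The means were 24.7 ± 32.9 CPM in NG/JG, 13.1 ± 8.09 in T10-L1 DRG, 4.77 ± 5.05 in TG and 1.05 ± 1.26 in L3-L5 DRG (SD, n = 4 each).

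Il1b, on chromosome 2 from 129190306 to 129196875, encodes interleukin-1 beta, a cytokine made above all by macrophages, monocytes and neutrophils. It had the widest range of the 10, from 0.620 to 1034 CPM. T10-L1 DRG had 188, 26.9, 70.2 and 1034 CPM, and L3-L5 DRG had 243, 8.04, 1.15 and 55.7 CPM. NG/JG library 1 had 357 CPM, while libraries 2 to 4 had 0.683, 1.93 and 0.620 CPM. TG was the even one, with 269, 192, 176 and 515 CPM. The means were 329.8 ± 475 CPM in T10-L1 DRG, 288 ± 157 in TG, 90.2 ± 178 in NG/JG and 77.0 ± 113 in L3-L5 DRG (SD, n = 4 each). In the first of these library 4 alone lifted the mean, and in NG/JG library 1 did. Of its 1907 exon bases 25 are shared with Gm14047 on the other strand.

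Cxcl1 and Cxcl2 encode chemokines that attract neutrophils through the receptor Cxcr2. Cxcl1, from 91320267 to 91322141 on chromosome 5, had 193, 75.4, 193 and 309 CPM in T10-L1 DRG and 153, 0.993, 2.97 and 47.9 CPM in L3-L5 DRG. In NG/JG it had 337, 106, 0.968 and 119 CPM, and in TG 62.5, 217, 106 and 136 CPM. L3-L5 DRG thus held 1 library over 100 CPM and 2 under 3 CPM, and NG/JG 3 over 100 CPM and 1 near 1 CPM. The means were 193 ± 95.3 CPM in T10-L1 DRG, 141 ± 141 in NG/JG, 130.3 ± 65.1 in TG and 51.2 ± 71.2 in L3-L5 DRG (SD, n = 4 each). Cxcl2, from 91332897 to 91334935, had 189.7, 19.4, 137 and 369 CPM in T10-L1 DRG and 172, 4.37, 10.1 and 10.1 CPM in L3-L5 DRG. Library 1 of L3-L5 DRG was again the one that reached into T10-L1 DRG. Its values were 306, 15.2, 0.8293 and 18.6 CPM in NG/JG and 108, 33.6, 89.2 and 167 CPM in TG. Over the 16 libraries Cxcl1 and Cxcl2 had the highest rank correlation of the 45 pairs of the 10 genes (Spearman rho 0.85), and Nfkbie and Nfkbia the lowest (0.04). These points share library and depth, and the values describe these libraries only.

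Ccl2, on chromosome 11 from 81849073 to 81850955, encodes the monocyte chemoattractant MCP-1, which injured sensory neurons also make. It had 61.8, 82.8, 117 and 242 CPM in T10-L1 DRG and 120.2, 12.6, 7.99 and 22.8 CPM in L3-L5 DRG. NG/JG fell into a high and a low pair, with 352 and 323 CPM in libraries 1 and 4 and 16.5 and 11.3 CPM in libraries 2 and 3. TG had 13.5, 97.8, 105 and 140.1 CPM. With means of 176 ± 187 CPM in NG/JG, 126 ± 80.7 in T10-L1 DRG, 89.2 ± 53.7 in TG and 40.9 ± 53.2 in L3-L5 DRG (SD, n = 4 each), the ganglia overlapped throughout.

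Ccr1, on chromosome 9 from 123876959 to 123883525, encodes a receptor for chemokines such as Ccl3 and Ccl5 that is carried by monocytes, macrophages and neutrophils. The T10-L1 DRG libraries had 17.4, 9.80, 13.0 and 57.7 CPM, all above the 8.27, 0.0992, 0.247 and 0.633 CPM of L3-L5 DRG. NG/JG had 53.8 CPM in library 1 and 0, 0.138 and 0 CPM in libraries 2 to 4. TG had 44.2 CPM in library 1 and 1.38, 0 and 0.878 CPM in the others. Apart from T10-L1 DRG, then, the reads of each ganglion came nearly all from library 1. Means were 24.5 ± 22.4 CPM in T10-L1 DRG, 13.5 ± 26.9 in NG/JG, 11.6 ± 21.7 in TG and 2.31 ± 3.98 in L3-L5 DRG (SD, n = 4 each).

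Icam1, on chromosome 9 from 20820404 to 20833241, encodes an adhesion molecule to which leukocyte integrins bind. T10-L1 DRG had 72.3, 28.7, 139.6 and 180.4 CPM and L3-L5 DRG had 72.3, 7.25, 0.577 and 10.3 CPM. In NG/JG it had 266, 49.7, 1.80 and 76.9 CPM, and in TG 336, 33.8, 22.0 and 37.1 CPM. Library 1 was the highest in L3-L5 DRG, NG/JG and TG. The means of TG (107 ± 153 CPM), T10-L1 DRG (105 ± 67.7 CPM) and NG/JG (98.7 ± 116 CPM) differed little beside their SD, and L3-L5 DRG had 22.6 ± 33.4 CPM (n = 4 each). Of its 2540 exon bases 491 lie opposite Mir1900, and the strand setting of the counting is not given in the sources used here, so reads of both could not be told apart there.

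**Figure D3:**
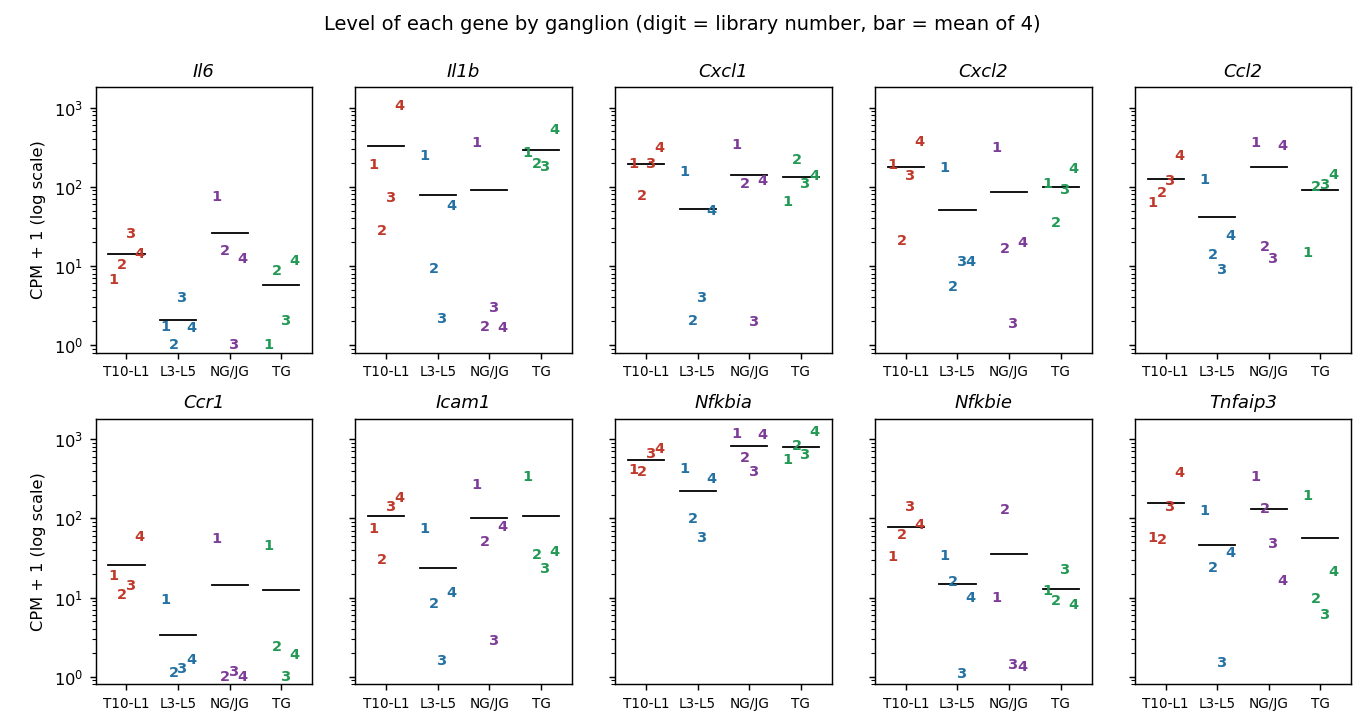
CPM + 1 on a log axis for each gene by ganglion, where a digit is a library by its number and a bar is the mean of 4 libraries. The bar of L3-L5 DRG is the lowest in all panels but Nfkbie, where it is that of TG, and neighbouring ganglia in the order of means overlap in every panel.

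When the 4 ganglia were put in order of their mean CPM, L3-L5 DRG came last for 9 of the 10 genes. T10-L1 DRG came first for 6 (Ccr1, Nfkbie, Tnfaip3, Cxcl1, Cxcl2 and Il1b), NG/JG for 3 (Il6, Nfkbia and Ccl2) and TG for Icam1. All 30 pairs of neighbours in these orders had overlapping libraries. Differences between ganglia made up 21.4% (Ccl2) to 59.0% (Nfkbia) of the variance of log2(CPM + 1) over the 16 libraries, beside a median of 29.8% over 12521 genes. The rest lay between libraries of one ganglion. T10-L1 DRG library 4 was the highest of its ganglion for 8 of the 10 genes, L3-L5 DRG library 1 for 9 and NG/JG library 1 for 9. In TG the place was shared, with library 4 highest for 5 genes and library 1 for Ccr1, Icam1 and Tnfaip3.

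T10-L1 and L3-L5 DRG, both spinal ganglia, were compared first, to ask how far the genes differed between 2 levels of the spinal cord. All 10 genes were higher in T10-L1 DRG by the fitted fold change of edgeR, given as log2 of T10-L1 over L3-L5 DRG with its SE. Il6 had 3.64 (SE 1.26) and Ccr1 3.51 (SE 1.33). Nfkbie had 2.57 (SE 1.07), Icam1 2.33 (SE 1.12) and Il1b 2.25 (SE 1.48). The smallest difference was that of Nfkbia, at 1.41 (SE 0.59), and Cxcl1, Cxcl2, Tnfaip3 and Ccl2 lay between 1.73 and 2.03. Of all 13550 genes tested 48.2% had a difference above 0. For Il6 and Ccr1 all 4 libraries of T10-L1 DRG lay above all 4 of L3-L5 DRG, which 1.53% of all genes tested did. None of the 10 was called at an adjusted p under 0.05, where edgeR called 0% of all genes and DESeq2 0.499%. At an unadjusted p under 0.05 edgeR took in 4 (Il6, Ccr1, Nfkbia and Nfkbie), where 6.07% of all genes passed. Il6, Ccr1, Nfkbie and Icam1 were known for this contrast in these libraries, so nothing is read from these counts. Leaving out one library at a time moved Il1b between 0.37 and 4.08, Ccr1 between 2.59 and 6.38 and Cxcl2 between 1.30 and 4.52, and all stayed above 0.

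**Figure D4:**
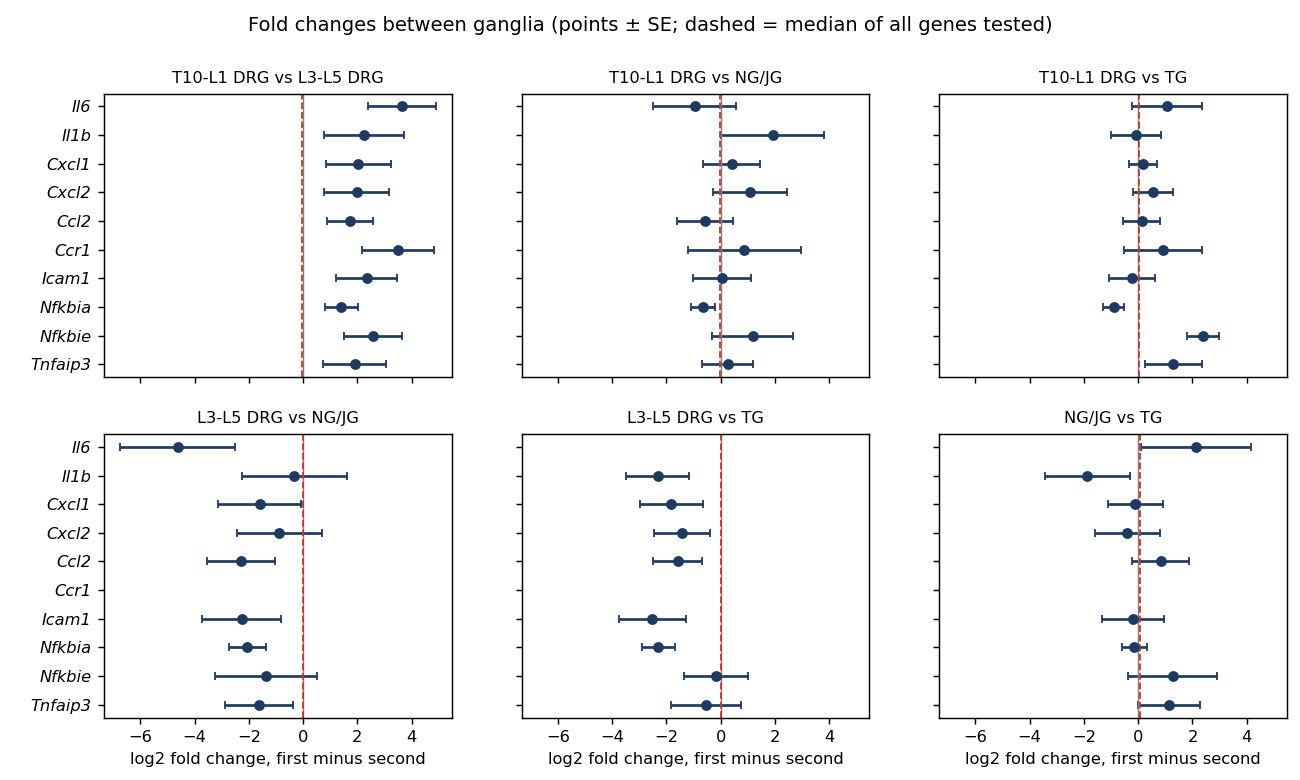
Log2 fold change (x axis, first ganglion minus second) of each gene in the 6 comparisons, with bars for ±1 SE and a dashed line for the median of all genes tested. All 10 points lie right of 0 for T10-L1 against L3-L5 DRG, and all points lie left of 0 for L3-L5 DRG against NG/JG (9 genes) and TG (8 genes).

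The other comparisons share these libraries, and each is given with its own values. Against NG/JG, L3-L5 DRG was lower for all 9 genes tested, with a median log2 difference of -1.63, from -0.32 (SE 1.95) for Il1b to -4.63 (SE 2.13) for Il6. Against TG it was lower for all 8 tested by the fitted fold change, with a median of -1.70. The differences ran from -0.17 (SE 1.17) for Nfkbie to -2.52 (SE 1.23) for Icam1. By mean CPM, Nfkbie was higher in L3-L5 DRG (13.9) than in TG (11.7). Nfkbia, with -2.29 (SE 0.62), was the one gene without overlap of L3-L5 DRG and TG libraries, where 3.96% of all genes lay wholly higher in TG. DESeq2 called 1 of the 8, Nfkbia, and 11.3% of all genes, and edgeR called 0 of each. Ccr1 was not tested in either comparison and Il6 not in the second, since filterByExpr, the low-count filter of edgeR, had removed them. Single libraries decided the sign of several of these differences. Against NG/JG, Il1b came to 6.00 and Cxcl2 to 1.86 without NG/JG library 1, and Nfkbie to 1.97 without NG/JG library 2, while the replicate block gave 1.80 for Il1b and 0.17 for Nfkbie. Against TG, Tnfaip3 came to 1.55 without TG library 1, and Nfkbie was above 0 in 4 of 14 alternatives, at most 0.31 without TG library 3. T10-L1 DRG differed from NG/JG and TG by medians of 0.33 and 0.37 over the 10 genes, which went both ways. Against NG/JG they ran from -0.96 (SE 1.53) for Il6 to 1.91 (SE 1.90) for Il1b, and without NG/JG library 1 Il1b came to 8.27 and Ccr1 to 8.80. Without the library of each ganglion highest in macrophage markers, a setting added after the data were seen, the medians were 0.77 and -0.15. Against TG, Nfkbie had 2.38 (SE 0.58) and no overlap, which 13.2% of all genes also showed. It was the 1 gene of the 10 called by edgeR there, where 5.87% of all genes were called, 1.54% as higher in T10-L1 DRG, and DESeq2 called it too, beside 15.4% of all genes. The edgeR call was lost in 10 of 14 alternatives, among them the replicate block and the omission of any 1 library other than TG library 1. Against NG/JG edgeR called 0 of the 10 and 0.0322% of all genes. NG/JG and TG differed by a median of -0.10 over 9 genes, between -1.88 (SE 1.56) for Il1b and 2.13 (SE 2.01) for Il6, and edgeR called 0 of the 9 where it called 0.051% of all genes. Leaving out one library at a time moved Il1b between -8.15 and -1.43. Its largest difference, without NG/JG library 1, was called by edgeR. The number of all genes called in that fit is not given here. Over the fits without 1 library it ranged from 1 to 325, with 325 in the fit without TG library 1. Also called was -7.73 (SE 0.87) without the library of each ganglion highest in macrophage markers, where edgeR called 10 of all 11549 genes. Both settings leave out NG/JG library 1, which had 357 CPM of Il1b against at most 1.93 CPM in the others of NG/JG. Il1b was not called in the other 12 alternatives.

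In T10-L1 DRG, L3-L5 DRG and NG/JG the library highest in most of the 10 genes was also highest in macrophage markers, which were listed apart from them. The mean log2(CPM + 1) of the 10 markers was 9.72 in T10-L1 DRG library 4 against 5.25 to 5.73 in the other 3. It was 8.42 in L3-L5 DRG library 1 against 1.97 to 5.35, and 7.55 in NG/JG library 1 against 1.22 to 2.21. In TG it was 8.18 in library 4, 7.65 in library 1, 6.43 in library 2 and 6.40 in library 3. Across ganglia, libraries with markers above 7 had a mean between 5.80 and 7.64 for the 10 genes. L3-L5 DRG libraries 2 and 3 and NG/JG library 3, lowest in the 10 genes, had markers at 1.97, 2.62 and 1.22. Between these the 2 orders differed in part. T10-L1 DRG library 3 had 6.69 for the 10 genes with markers at 5.73. TG libraries 2 and 3 had 5.27 and 4.93 for the 10 genes with markers above 6. The summed level of the list ranged from 61.3 to 5344 CPM in L3-L5 DRG, from 628 to 13467 in T10-L1 DRG, from 17.6 to 2784 in NG/JG and from 1836 to 6809 in TG. All 10 were detected in all libraries but one of NG/JG, where Aif1 was at 0, with C1qb and C1qc highest on average. In a sorted bulk sample, fewer cells of a type and less RNA per cell cannot be told apart. The part of these cells in the levels of the 10 genes was not tested.

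**Figure D5:**
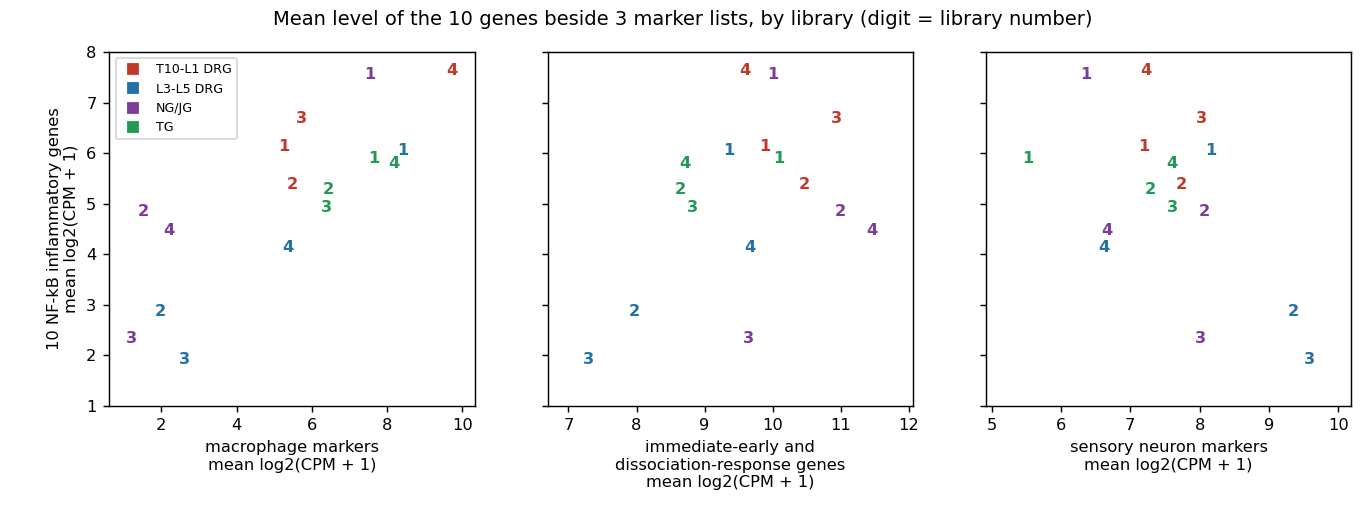
Mean log2(CPM + 1) of the 10 NF-kB inflammatory genes (y axis) beside that of the macrophage, immediate-early and sensory neuron lists (x axes), with one digit per library in the colour of its ganglion. Libraries with macrophage markers above 7 have the 10 genes between 5.80 and 7.64. With macrophage markers from 1.22 to 2.62, NG/JG libraries 2 to 4 have the 10 genes at 4.84, 2.33 and 4.47. L3-L5 DRG libraries 2 and 3, in the same marker range, have them at 2.86 and 1.92.

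The macrophage markers were lowest in 5 libraries, where all 10 summed to 70.1, 17.6 and 214 CPM in NG/JG libraries 2 to 4 and to 61.3 and 82.2 CPM in L3-L5 DRG libraries 2 and 3. Nfkbia had 382 to 1145 CPM in the 3 NG/JG libraries and 95.8 and 55.1 CPM in the other two. Cxcl1 (106, 0.968 and 119 CPM in NG/JG, 0.993 and 2.97 CPM in L3-L5 DRG), Icam1 (49.7, 1.80 and 76.9 against 7.25 and 0.577) and Il6 (14.2, 0 and 11.4 against 0 and 2.88) varied widely within these 5. So did Ccl2, Nfkbie, Tnfaip3 and Cxcl2, with lowest values of 7.99, 0.0824, 0.494 and 0.8293 CPM and highest values of 323, 127, 131 and 18.6 CPM. Ccr1 was at 0.247 CPM or less in the 5, and Il1b at 8.04 CPM or less.

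When the library of each ganglion with the most macrophage markers was left out, the setting named above, the 10 differences between T10-L1 and L3-L5 DRG stayed above 0. Their median was 3.29, in a setting that drops L3-L5 DRG library 1, the highest of its ganglion for 9 of the 10 genes. The macrophage markers themselves still differed there, with 9 of 10 higher in T10-L1 DRG and a median of 1.69, so their part in the 10 genes was not tested by it. In the same setting the log2 difference of Il1b was -3.67 (SE 1.15) between L3-L5 DRG and TG and 4.18 (SE 1.96) between L3-L5 DRG and NG/JG, the latter with the opposite sign to the value with all libraries.

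Other lists moved with the comparison of T10-L1 and L3-L5 DRG too. All 13 immediate-early and dissociation-response genes, of which Fos and Egr1 had the highest CPM, were higher in T10-L1 DRG, with a median log2 difference of 1.37. So were all 10 macrophage markers (median 1.41), the 8 neutrophil markers tested (1.12), the 8 mural markers (0.87) and the 7 fibroblast markers (0.92). All 10 sensory neuron markers were lower (median -1.15), while glial markers (0.07) and endothelial markers (-0.12) were near 0. The neutrophil markers Elane and Cxcr2 were not tested. Their mean CPM was higher in L3-L5 DRG (7.64 and 1.18) than in T10-L1 DRG (0 and 0.62). edgeR called 0 genes of these lists. DESeq2, which called 0.499% of all genes, called 1 immediate-early gene higher in T10-L1 DRG and 1 neutrophil marker higher in L3-L5 DRG. Neutrophil markers, with S100a8 and Ngp highest, reached at most 81.7 CPM summed in NG/JG and 47.4 in TG, against 115 to 1109 per T10-L1 DRG library and 5.26 to 635 per L3-L5 DRG library. Immediate-early genes summed to 3487 to 18633 CPM in L3-L5 DRG, 17198 to 44661 in T10-L1 DRG, 20489 to 59714 in NG/JG and 9807 to 26702 in TG. L3-L5 DRG libraries 2 and 3, which with NG/JG library 3 were lowest in the 10 genes, had the fewest immediate-early and the most sensory neuron reads of the 16. The part of these lists in the result was not tested.

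The rest of the pathway was read from 85 further genes in 5 lists. For T10-L1 against L3-L5 DRG, 75 could be tested, edgeR called 0 in either direction at an adjusted p under 0.05, and 61 had a difference above 0 (median 1.07). An unadjusted p under 0.05 was reached by 11 of the 75, beside the 6.07% of all genes. DESeq2 called 3, all higher in T10-L1 DRG, where it called 0.218% of all genes in that direction. Rel, which encodes the subunit c-Rel, had 97.5, 95.3, 170.2 and 125 CPM in T10-L1 DRG and 31.7, 20.5, 7.33 and 49.0 CPM in L3-L5 DRG, a log2 difference of 2.24 (SE 0.52, adjusted p = 0.785 in edgeR and 0.01845 in DESeq2). Its ranges did not overlap. All T10-L1 DRG libraries lay above all L3-L5 DRG libraries for 5 of the 75 pathway genes and for 1.53% of all genes tested. Sele, the endothelial selectin that NF-kB induces, differed by 4.62 (SE 1.24, adjusted p = 0.785 in edgeR and 0.00432 in DESeq2) at no more than 15.5 CPM in either ganglion. Tnip2, a partner of A20, differed by 1.43 (SE 0.37, adjusted p = 0.785 in edgeR and 0.0158 in DESeq2).

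The 5 subunit genes were all above 0 in that comparison (median 1.32), Nfkb2 with 1.33 (SE 0.81) and Relb with 1.32 (SE 0.63), and none was called by edgeR. Of the 13 other inhibitors and feedback regulators 8 were above 0 (median 0.50), with Zc3h12a at 2.60 (SE 1.25) and Nfkbiz, which encodes an atypical IkB protein, at 2.16 (SE 0.81). Among 24 receptors, adaptors and kinases upstream of NF-kB 19 were above 0 (median 0.56), with Tlr2 at 2.31 (SE 1.43), Cd14 at 1.87 (SE 1.37) and Tnfrsf1b at 1.75 (SE 0.82). Of 23 other target genes tested 20 were above 0 (median 1.40), among them the cytokine genes Il1a at 2.86 (SE 1.84) and Tnf at 2.42 (SE 1.60). Of 10 receptors, ligands and other partners of the 10 genes 9 were above 0 (median 1.15), with the interleukin-1 receptor antagonist Il1rn at 2.74 (SE 1.82), Socs3 at 1.76 (SE 0.48) and Ccl9 at 1.61 (SE 1.53).

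In the comparison of T10-L1 DRG with TG, edgeR called 3 of 75 pathway genes, all higher in T10-L1 DRG, and DESeq2 called 9 of 70, beside the 5.87% and 15.4% of all genes given above. At an unadjusted p under 0.05 in edgeR there were 21, where 21.6% of all genes passed. Mmp9, a secreted protease of neutrophils and macrophages, had 35.2, 22.8, 19.3 and 45.9 CPM in T10-L1 DRG and 0.127, 0.590, 3.44 and 1.40 CPM in TG, a log2 difference of 4.08 (SE 1.00, adjusted p = 0.0432 in edgeR). Selp, the P-selectin of endothelium and platelets, had 26.4, 34.7, 15.7 and 3.30 CPM against 0.127, 1.38, 0.172 and 0.176 CPM, a log2 difference of 4.98 (SE 1.23, adjusted p = 0.0435 in edgeR). Tnfrsf1b, the second receptor of tumour necrosis factor, had 40.7, 30.6, 83.0 and 252 CPM against 6.73, 14.8, 4.98 and 7.02 CPM, a log2 difference of 3.27 (SE 0.76, adjusted p = 0.0382 in edgeR). No library of TG reached T10-L1 DRG for any of them. The same held for 14 of the 75 pathway genes and for 13.2% of all genes tested. The 3 edgeR calls were lost when any library but TG library 1 was left out. Without that library edgeR called 24 pathway genes, beside 3583 genes in all. In the 3 comparisons with NG/JG and in that of L3-L5 DRG with TG edgeR called 0 pathway genes. DESeq2 called 3 for T10-L1 DRG against NG/JG (6.13% of all genes), 3 for L3-L5 DRG against NG/JG (5.66%), 7 for NG/JG against TG (6.35%) and 3 for L3-L5 DRG against TG. An unadjusted p under 0.05 in edgeR was reached by 3, 6, 5 and 11 pathway genes in this order, where 5.91%, 6.04%, 10% and 18.2% of all genes passed.

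The genes whose levels ran most like those of the 10 were found among 12512 genes by Spearman's rho over the 16 libraries with the mean of the standardized log2(CPM + 1) of the 10. AI607873 (0.90), Ifi203 (0.89), Cd14 (0.88), Cx3cr1 (0.86) and Cebpb (0.86) came first, followed by C5ar1, Lilrb3, Elf4, Nhlrc3 and Itga5 (0.85 to 0.86), where the median of all genes was 0.02. Cd14 is a co-receptor of Toll-like receptors, Cx3cr1 is the fractalkine receptor of macrophages and C5ar1 the receptor of complement C5a. For deviations from the ganglion means, Pearson's r was highest for Cd74 (0.94), H2-Eb1 (0.93), H2-Aa (0.92), Skil (0.92) and Cebpb (0.91), of which the first 3 are genes of antigen presentation by MHC class II. The libraries share depth and cell content in these values, which are a description. Of the first 10 genes, 8 were also among the first 100 within ganglia. Only 2 of them were among the first 10 by Pearson's r over the 16 libraries, and 7 were with a pseudocount of 0.1. All 10 stayed among the first 100 by both, so the order of the named genes depended on the measure.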

How the data were processed

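The deposited values are raw read counts per gene symbol, 1 table for each of 16 libraries of sorted sensory neurons. The authors made SMART-seq2 libraries with oligo dT, sequenced single reads, demultiplexed them, aligned them to mm9 with TopHat2 and counted with HTSeq. For the demultiplexing the sample record names bcl2fastq and the paper names CASAVA. Versions, gene annotation and strand setting are not given in the sources used here, and an unstranded counter cannot separate overlapping genes.

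CPM were counts scaled to the reads on genes, without the counter's rows of uncounted reads. RPKM used exon lengths of GENCODE vM1. Each pair of ganglia was fitted on its own 8 libraries and all genes with edgeR 4.0.16 in R 4.3.3 (filterByExpr, TMM, quasi-likelihood test, Benjamini-Hochberg adjustment, threshold 0.05), group being the only term. DESeq2 1.42.0 (Wald test), RLE factors, no filter, a fit of all 16 libraries, leaving out each library and the replicate number as a block were alternatives. The scripts were tested on simulated data. Log2 levels used a pseudocount of 1, and 3 counts were taken as the limit of a count of 0.

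The 10 genes, the pathway lists and the marker lists were chosen with earlier results of these data known. Named besides the 10 genes are pathway genes called by edgeR, the 3 largest differences of each list between T10-L1 and L3-L5 DRG, and the genes most like the 10. No library pair of one ganglion agreed within sampling noise.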

Additional observations from a re-analysis of the deposited data

Results flagged for a closer look

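In 13 of 40 groups of 4 libraries (10 genes in 4 ganglia), one library lay so far from the others that its gap to the nearest passed Dixon's 95% limit for 4 values. Chance does this in about 1 of 20 groups of independent, normally distributed values, which CPM are not. By the same rule 13.6% of the groups of 4 of all 12521 genes with at least 10 counts in 8 libraries were set apart, 8.67% in T10-L1 DRG, 6.5% in L3-L5 DRG, 21.1% in NG/JG and 18% in TG. Of the 13, 4 were in L3-L5 DRG library 1, at 8.27 CPM for Ccr1, 72.3 CPM for Icam1, 172 CPM for Cxcl2 and 120.2 CPM for Ccl2. NG/JG library 1 stood apart for Ccr1 at 53.8 CPM, Cxcl2 at 306 CPM and Il1b at 357 CPM. TG library 1 stood apart for Ccr1 at 44.2 CPM, Icam1 at 336 CPM and Tnfaip3 at 189.9 CPM. T10-L1 DRG library 4 did so for Ccr1 at 57.7 CPM and Il1b at 1034 CPM. The remaining case was Nfkbie in NG/JG library 2, at 127 CPM. The 10 genes share these libraries, and 10 of the 13 cases were in libraries numbered 1. Ccr1 stood apart in all 4 ganglia, and Il6, Nfkbia and Cxcl1 in none. The libraries numbered 1 of L3-L5 DRG and NG/JG and number 4 of T10-L1 DRG were also those with the most macrophage marker reads of their ganglion, and the part of those cells was not tested.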

How the results depend on the processing

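The direction of all 10 genes between T10-L1 and L3-L5 DRG held in all 140 alternative values. These are refits of the same libraries, and Il6, Ccr1, Nfkbie and Icam1 had been selected on this difference. The values are therefore a description and no independent support. In the other 5 comparisons 62 of the alternative values had the other sign. The number of genes called depended on the test. For T10-L1 DRG against L3-L5 DRG, NG/JG and TG, L3-L5 DRG against NG/JG and TG, and NG/JG against TG, in this order, edgeR called 0, 4, 758, 0, 0 and 6 genes, and DESeq2 78, 909, 2199, 819, 1612 and 854. From the second comparison on, no filter on low counts gave 9, 427, 2, 39 and 56 genes and one fit over all 16 libraries 54, 238, 83, 206 and 484. Of pathway genes, DESeq2 called 3, 3, 9, 3, 3 and 7. Without the filter 5 were called for T10-L1 DRG against TG and 1 for NG/JG against TG, and in the fit of all 16 libraries 0 and 2, with 1 for L3-L5 DRG against NG/JG.

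With the replicate block edgeR called 0 genes for T10-L1 DRG against NG/JG, 0 genes and 0 pathway genes for T10-L1 DRG against TG and 1 gene for NG/JG against TG. The labels do not say that a number marks a shared batch, and in no comparison did all 4 same-numbered pairs deviate together with a correlation over 0.1 (means 0.013 to 0.126), so the numbers were not taken to pair the libraries. As a hint from the data only, 3 of 4 pairs passed 0.1 for T10-L1 against L3-L5 DRG, and 6 of 8 libraries matched their own number best for L3-L5 DRG against NG/JG. Without the library of each ganglion highest in macrophage markers, added after the data were seen, the counts were 0, 0 and 10 genes in those 3 comparisons, with 0 pathway genes for T10-L1 DRG against TG and 1 for NG/JG against TG. Leaving out one library at a time gave 0 to 0, 1 to 5, 0 to 3583, 0 to 2, 0 to 2038 and 1 to 325 genes and 0 to 0, 0 to 0, 0 to 24, 0 to 0, 0 to 5 and 0 to 4 pathway genes. The highest counts against TG, 3583, 2038 and 325, came without TG library 1. For T10-L1 DRG against TG, the call of Nfkbie held with DESeq2, RLE factors, no filter and without TG library 1, and was lost in the other 10 alternatives. Ccr1 had 3 counts or fewer in 7 libraries and Il6 in 4.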
